A study of Homo sapiens with 12 samples.

Results

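The ID genes (inhibitor of DNA binding) ID1, ID2, ID3 and ID4 were followed in Huh7, a long-established line of human hepatoma cells, with and without erythroferrone (ERFE). They are 4 of the 20046 genes named in the platform annotation. All 6 probes that the platform annotation gives to these 4 genes were taken from the 47323 probes of an Illumina HT-12 v4 array, by gene symbol and without regard to their values: 2 for ID1, 2 for ID2, 1 for ID3 and 1 for ID4. The genes themselves were chosen with earlier results of these data known. Untreated Huh7 cells, Huh7 cells given 10 µg/ml recombinant human ERFE and Huh7 cells given 10 µg/ml recombinant mouse ERFE were each measured on 4 arrays, from total RNA after 24 h. The control cells were untreated, and the arrays include no group given another recombinant protein. Because the title "replicate 3" occurs on a pair of arrays of the mouse ERFE group, their title codes are added here to give 3-A4 and 3-B4. Whether replicate arrays stand for separate cultures is not in the labels, so p-values measure only the spread between these samples, which may be technical. Huh7 is a single line, and the RNA of a culture cannot tell apart fewer expressing cells from less RNA per cell.

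ID proteins are helix-loop-helix proteins that lack the basic region with which relatives hold DNA. They pair with E proteins, the partners that tissue-restricted basic helix-loop-helix (bHLH) factors need, and so keep those factors off their E-box sites. In many cell types ID1, ID2 and ID3 are direct targets of bone morphogenetic proteins (BMPs): a BMP receptor phosphorylates SMAD1 and SMAD5, which enter the nucleus with SMAD4. In hepatocytes the same signal drives HAMP, the gene for hepcidin, a peptide that limits the release of iron into blood. ERFE, released by erythroblasts, is known to bind BMPs and to lower hepcidin, and the ID genes are widely used as a readout of BMP signalling.

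The sequences upstream of the 3 ID genes with detected signal are shown here because these genes were lower together with ERFE. Each is the 250 bases before the gene's RefSeq start (assembly GRCh38.p14), written 5′ to 3′ on the gene's own strand. ID1 covers chr20:31605039-31605288 on the plus strand, ID2 covers chr2:8681806-8682055 on the plus strand and ID3 covers chr1:23559502-23559751 on the minus strand. Capitals mark each match, on either strand, to the SMAD box CAGAC, the E-box CANNTG, the CCAAT box CCAAT or the TATA box TATAAA.
ID1: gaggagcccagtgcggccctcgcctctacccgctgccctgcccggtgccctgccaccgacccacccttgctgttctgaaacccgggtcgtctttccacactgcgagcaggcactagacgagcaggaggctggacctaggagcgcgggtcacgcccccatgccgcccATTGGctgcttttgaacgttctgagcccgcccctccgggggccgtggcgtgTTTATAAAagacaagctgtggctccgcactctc
ID2: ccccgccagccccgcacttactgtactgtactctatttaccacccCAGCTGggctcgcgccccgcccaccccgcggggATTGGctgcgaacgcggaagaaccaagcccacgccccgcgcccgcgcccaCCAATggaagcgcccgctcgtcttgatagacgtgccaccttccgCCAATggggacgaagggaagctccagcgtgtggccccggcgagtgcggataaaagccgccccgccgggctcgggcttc
ID3: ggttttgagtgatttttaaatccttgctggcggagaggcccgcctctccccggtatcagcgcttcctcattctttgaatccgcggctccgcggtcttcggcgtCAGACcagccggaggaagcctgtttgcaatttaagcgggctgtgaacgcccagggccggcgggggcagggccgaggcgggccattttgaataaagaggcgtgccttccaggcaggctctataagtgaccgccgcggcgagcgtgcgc

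The 3 windows had little in common among the motifs searched. The SMAD box was found in ID3 alone, 147 bases before the start, against 38.1% of 27305 RefSeq promoter windows of the same length. ID2 held the only E-box, 205 bases before the start, a motif present in 62.5% of all windows. A CCAAT box lay 84 bases before the start of ID1 and 172, 122 and 78 bases before that of ID2 (32.7% of all windows). ID1 held overlapping TATA box matches 33 and 31 bases before the start (11.4% of all windows). The GC box GGGCGG, left in lower case, began 90 and 58 bases before the start of ID1 and 189 and 23 bases before that of ID2, and ID3 held none (41.3% of all windows). The GC-rich SMAD1/5 element GGCGCC was in none of the 3 windows (15.7% of all windows). The windows were 66% (ID1), 69.2% (ID2) and 62% (ID3) G and C, against a median of 57.6%. These are matches of letters in a short window and say nothing of what binds there or further away.

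Signals below are deposited intensities on a linear scale or, where called normalized, log2 values after background correction and quantile normalization. A probe counts as detected on an array where its deposited detection p is under 0.05. ID1, ID2 and ID3 were detected on all 12 arrays by at least 1 probe, and 5 of the 6 ID probes passed the filter of detection on at least 4 arrays. For tests each gene was represented by its brightest probe, which gave 10891 genes, and p-values are two-sided, from limma, with Benjamini-Hochberg adjustment over all of them. A gene is called where its adjusted p is under 0.05.

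Human ERFE lowered ID1, ID2 and ID3. All 3 were called lower with the human protein, against 15 of all 10891 genes (0.138%). For each of them all human ERFE arrays lay below all untreated arrays, which held for 1.74% of genes. With mouse ERFE, ID1 and ID3 were called lower, against 16 of 10891 genes (0.147%). ID2 also had all mouse ERFE arrays below all untreated arrays, which was true of 4.02% of genes, but missed the threshold. In the mean of both ERFE groups against untreated cells all 3 were called lower, where 0.239% of genes were, and for each of them all 8 ERFE arrays lay below all untreated arrays, as they did for 0.762% of genes. With each array centred on its median in place of quantile normalization, ID3 alone was called with either protein. With the number in the array title codes, whose meaning is not stated, as a block, none of the 3 was called with either protein alone (ID3 -0.90, limma adjusted p = 0.0609, and -0.84, adjusted p = 0.0883), while ID1 and ID3 still passed over both proteins together. Over all 10891 genes, that block left 3 called lower with human and 0 with mouse ERFE, and median centring left 5 and 4. 

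**Figure D1:**
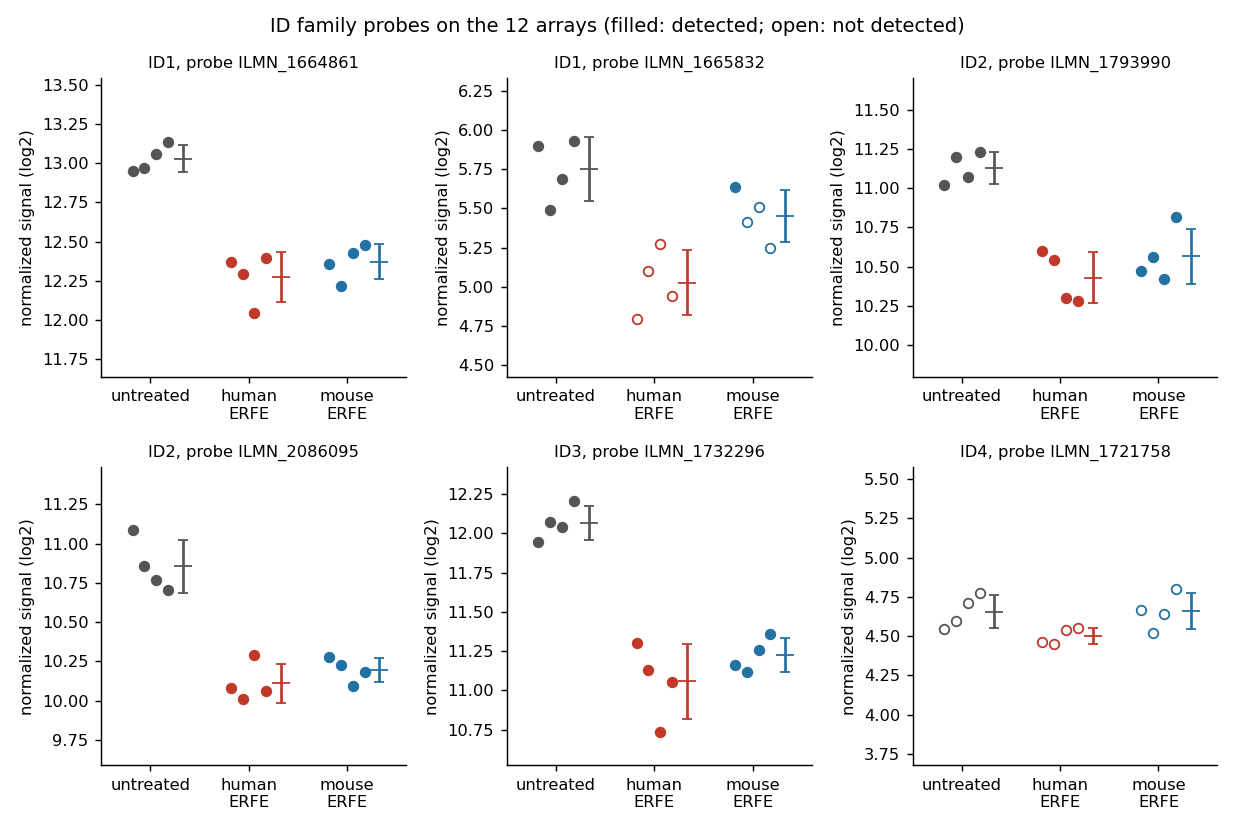
Normalized log2 signal of the 6 ID probes on each of the 12 arrays, by group, with a horizontal tick at the mean and bars of 1 SD (n = 4 arrays). Filled points were detected and open points were not, each panel has its own vertical range, and for the brighter ID1 and ID2 probes and the ID3 probe every ERFE array lies below every untreated array.

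ID3, the member with the largest fall, lost about as much as was left with human ERFE. Its deposited signal was 4710, 3610, 3849 and 5422 in untreated replicates 1 to 4. With human ERFE it was 2634, 2663, 2212 and 2097. With mouse ERFE it was 3172, 1826, 2267 and 2280 in arrays 1, 2, 3-A4 and 3-B4. No ERFE array reached the lowest untreated one, and among the ERFE arrays mouse ERFE array 1 was the brightest before normalization. The normalized level was 12.07 ± 0.11 (SD, n = 4) in untreated cells, 11.06 ± 0.24 with human ERFE and 11.22 ± 0.11 with mouse ERFE. The change with human ERFE was a log2 fold change of -1.01 ± 0.11 (SE, limma adjusted p = 0.0026), which left 49.7% of the untreated signal. This was the 14th largest fall of all genes tested. With mouse ERFE the log2 fold change of ID3 was -0.84 ± 0.11 (limma adjusted p = 0.0102), which left 55.8%.

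ID1, the member best known as a direct BMP target in endothelium and liver, fell somewhat less. The brighter ID1 probe had deposited signals of 9504, 6819, 7666 and 9772 in untreated replicates 1 to 4. With human ERFE its signals were 5429, 5589, 5199 and 5050. With mouse ERFE they were 7157, 3922, 4986 and 4799. On the deposited scale mouse ERFE array 1 lay above the lowest untreated array, whereas after normalization all 8 ERFE arrays (12.04 to 12.48) lay below all untreated arrays (12.95 to 13.13). The normalized level was 13.03 ± 0.08 (SD, n = 4) without ERFE, 12.28 ± 0.16 with the human and 12.37 ± 0.11 with the mouse protein. The log2 fold change of ID1 was -0.75 ± 0.09 with human ERFE (SE, limma adjusted p = 0.00416), or 59.4% of the untreated signal left. With mouse ERFE it was -0.66 ± 0.09 (limma adjusted p = 0.0126), or 63.4% left, and without untreated replicate 3 this call was lost (-0.65, adjusted p = 0.0625).

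ID2, which unlike the other members is also known to bind the retinoblastoma protein, fell with human ERFE by a similar amount to ID1. The brighter ID2 probe had deposited signals of 2508, 2023, 2039 and 2851 in untreated cells. Its signals were 1615, 1813, 1700 and 1275 with human ERFE. With mouse ERFE they were 2037, 1284, 1321 and 1607. As for ID1, mouse ERFE array 1 stood within the untreated range before normalization and below it (10.47 against 11.02 to 11.23) afterwards. The log2 fold change of ID2 was -0.70 ± 0.11 with human ERFE (SE, limma adjusted p = 0.0166), or 61.6% left, from 11.13 ± 0.10 (SD, n = 4) to 10.43 ± 0.16. This call was lost without untreated replicate 2 or 3 or human ERFE replicate 3 or 4, with limma adjusted p from 0.0507 to 0.0792. With mouse ERFE the level was 10.57 ± 0.18 and the log2 fold change -0.56 ± 0.11 (limma adjusted p = 0.0605), which did not pass. Array 3-B4 stood highest of the mouse ERFE arrays at 10.81, and without it ID2 passed (-0.65, limma adjusted p = 0.0425).

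The second probes of ID1 and ID2 gave 2 different pictures. For ID2 the other probe also fell with both proteins, by -0.74 ± 0.10 on the log2 scale with human ERFE (SE, limma adjusted p over all 18646 probes = 0.0120) and by -0.66 ± 0.10 with mouse ERFE (adjusted p = 0.0285). Its ERFE arrays (10.01 to 10.29) all lay below its untreated arrays (10.71 to 11.09). The other ID1 probe was dim, with deposited signals of 146 to 215. It was detected on 4 of 4 untreated arrays, 0 of 4 human ERFE arrays and 1 of 4 mouse ERFE arrays. With human ERFE its signal is only bounded, at least 1.28-fold lower than in untreated cells, and it did not pass (limma adjusted p over all probes = 0.087). With mouse ERFE the dim ID1 probe differed by -0.30 ± 0.13 with overlapping arrays (adjusted p = 0.446), so the probes of ID1 disagreed on the call.

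ID4, a member known mainly from neural and mammary tissue, was not measurable. Its single probe had deposited signals of 118 to 165 with detection p from 0.382 to 0.970, and was detected on 0 of 12 arrays. The signal was not well above background in any group, so no fold was computed and ID4 stays out of every count of genes tested.

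**Figure D2:**
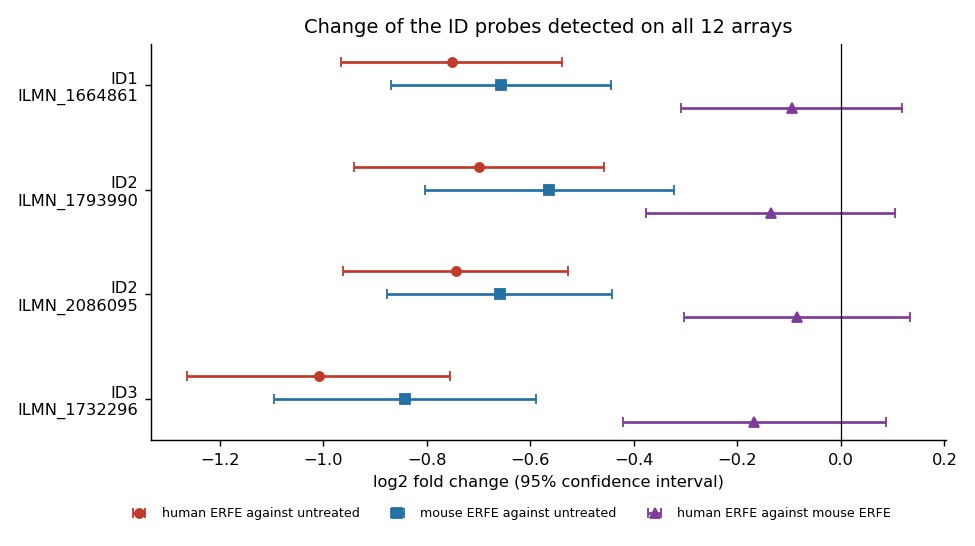
Log2 fold change of the 4 ID probes detected on all 12 arrays, with 95% confidence intervals from a limma fit over all 18646 probes, for human ERFE against untreated (circles), mouse ERFE against untreated (squares) and human against mouse ERFE (triangles). The intervals against untreated lie below 0 for every probe shown, and those between the proteins span 0.

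No difference between the human and mouse proteins was detected in the ID genes. Human minus mouse ERFE was -0.10 on the log2 scale for ID1 (95% confidence interval -0.30 to 0.11), -0.14 for ID2 (-0.37 to 0.10) and -0.17 for ID3 (-0.41 to 0.08). None of the 3 was called (limma adjusted p = 0.999 for each), where 1 of 10891 genes was (0.00918%), and the arrays of the proteins overlapped for each gene (0.826% of genes had all human ERFE arrays below all mouse ERFE arrays). All 3 point estimates were lower with the human protein, and the intervals leave room for a difference of up to 0.41. Mouse ERFE acted here on human cells, and whether both preparations were equally active is not given in the sources used here.

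At the brightest probe of each gene, every ERFE array was below the untreated range in ID1, ID2 and ID3. The order of arrays within a group differed between these probes. As deviations from the untreated mean, averaged over ID1, ID2 and ID3, the untreated arrays lay from -0.10 to 0.12 on the log2 scale. The human ERFE arrays lay from -1.05 to -0.65 and the mouse ERFE arrays from -0.78 to -0.52. Human ERFE replicate 3 had the deepest deviation for ID1 (-0.98) and ID3 (-1.33), while ID2 was lowest in human ERFE replicate 4 (-0.85), the array where ID1 was highest among the human ERFE arrays (-0.63). Mouse ERFE array 3-B4 had the shallowest deviation of all ERFE arrays for each of the 3 genes, with -0.55 for ID1, -0.32 for ID2 and -0.71 for ID3. Untreated replicate 4 was the highest array for each of the 3. The order for ID2 belongs to its brighter probe alone. At the other ID2 probe, human ERFE replicate 3 stood highest of the ERFE arrays (10.29, against 10.18 for 3-B4). Untreated replicate 4 was the lowest untreated array there (10.71).

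To ask whether ID3 fell by more than its relatives, the difference of a pair of genes was taken within each array and compared between groups by an exact two-sided permutation test of 4 against 4 arrays, with adjustment over the 6 differences. The smallest p this design allows is 0.0286. ID1 minus ID3 was larger by 0.26 with human ERFE (from 0.96 ± 0.06 to 1.22 ± 0.13, SD, n = 4) and by 0.18 with mouse ERFE (1.15 ± 0.04). ID2 minus ID3 was larger by 0.31 with human ERFE (from -0.94 ± 0.05 to -0.63 ± 0.15) and by 0.28 with mouse ERFE (-0.66 ± 0.14). In these 4 differences the groups did not overlap, each reached the smallest p (exact permutation p = 0.0286, adjusted 0.0429), and in each the fall of ID3 was the deeper one. ID1 minus ID2 moved by -0.05 with human ERFE (exact permutation, adjusted p = 0.6) and by -0.09 with mouse ERFE (adjusted p = 0.377), and its groups overlapped. The comparisons share the same untreated arrays, and ID1 minus ID3 and ID2 minus ID3 share ID3. With the other ID2 probe in place of the brighter one, ID2 minus ID3 was larger by 0.27 and 0.18 (adjusted p = 0.429 and 0.4), and none of the 6 differences passed. ID1 minus ID3 does not use ID2 and kept its values there, so it missed the threshold only through the adjustment over the 6 differences. Leaving out any single untreated array also left none past the threshold (adjusted p = 0.0857).

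**Figure D3:**
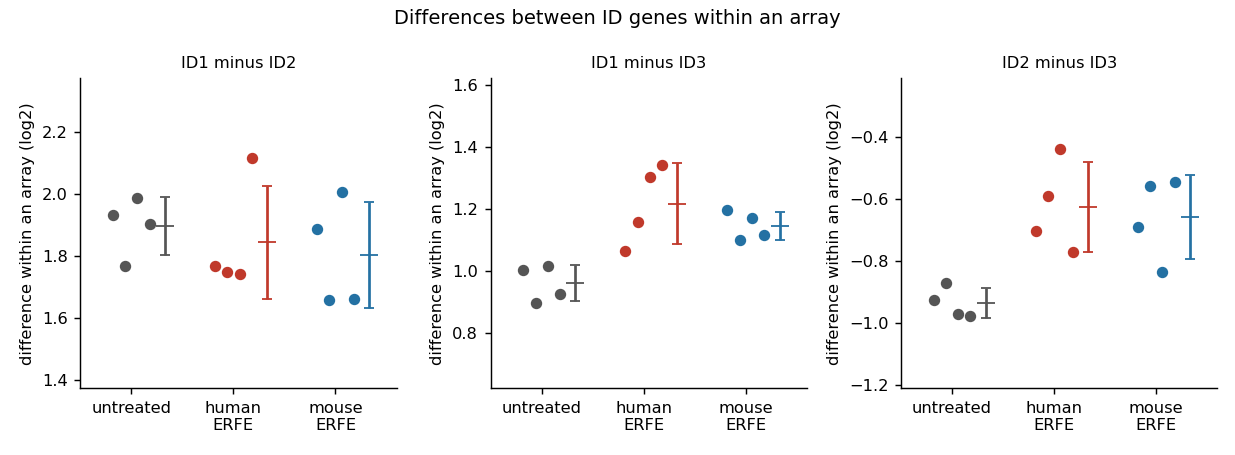
Difference between the normalized log2 signals of 2 ID genes within each array, by group, with the mean and bars of 1 SD (n = 4 arrays). Each panel has its own vertical range, and for ID1 minus ID3 and ID2 minus ID3 every ERFE array lies above every untreated array, whereas ID1 minus ID2 overlaps.

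The genes whose array-by-array pattern was most like that of the ID genes included both inhibitory SMADs. Likeness was the root mean square difference between 2 genes over the 12 arrays, in log2 deviations from the untreated mean. A small value means deviations of like size. The order of arrays within a group can still differ, as it did between ID1 and ID2. On the background-corrected scale the closest to ID3 was SMAD6, an inhibitor of BMP signalling that BMP itself induces, at 0.0823 against a median of 0.793 over all genes. It was followed by UCA1 (0.249), a long noncoding RNA, PFKFB3 (0.260), an enzyme that speeds glycolysis, SLC29A3 (0.263), a nucleoside transporter of lysosomes, and CDX2 (0.294), a homeobox factor of intestine. Closest to ID1 were SLC29A3 (0.130), CDX2 (0.161), the calcium-binding protein gene S100P (0.170), the chondroitin sulfotransferase gene CHST3 (0.174) and SMAD7 (0.177), against a median of 0.613. Closest to ID2 were SMAD7 (0.144), the small nucleolar RNA SNORA27 (0.150), S100P (0.151), MTURN (0.158) and the monoglyceride lipase gene MGLL (0.175), against a median of 0.564. Likeness used each gene's brightest probe. A second PFKFB3 probe changed by -0.32 ± 0.15 with human and -0.48 ± 0.15 with mouse ERFE, against -0.83 and -0.69 at the brightest. A second MGLL probe changed by -0.37 ± 0.11 and -0.24 ± 0.11, against -0.51 and -0.58 (log2 fold change ± SE). Among the ID genes themselves ID1 and ID2 differed by 0.147, ID1 and ID3 by 0.197 and ID2 and ID3 by 0.262. Only 1 gene outside the family was closer to ID1 than ID2 was, 8 were closer to ID1 than ID3 was, and 28 were closer to ID2 than ID3 was. These values describe genes picked for likeness to a fall, over 12 arrays that share their normalization, and carry no test.

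**Figure D4:**
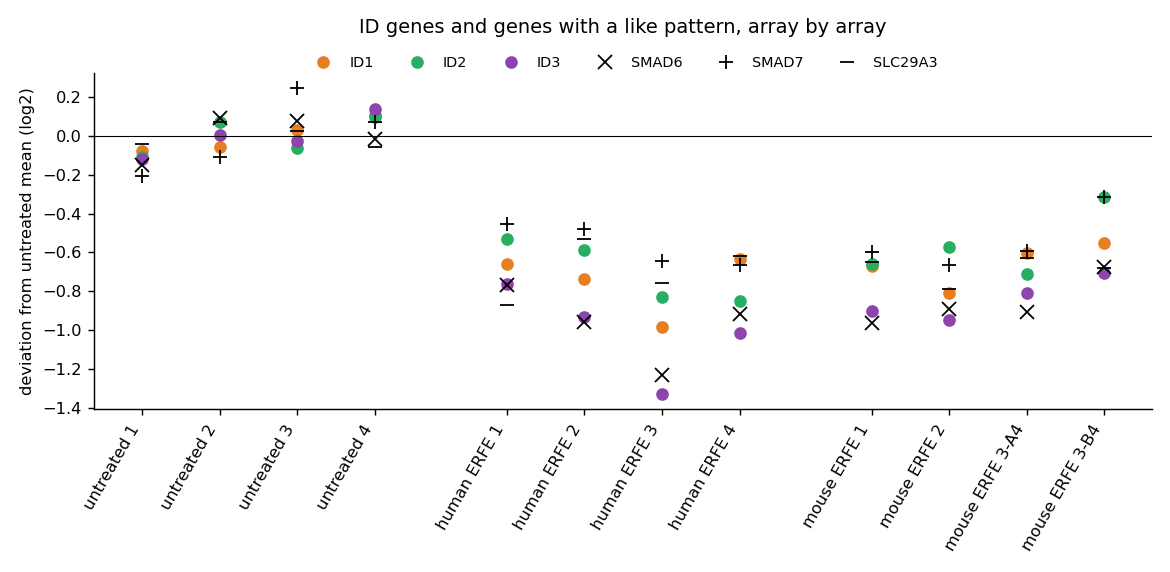
Deviation of normalized log2 signal from the untreated mean on each of the 12 arrays for ID1, ID2 and ID3 (coloured points) and for SMAD6, SMAD7 and SLC29A3 (black symbols). Each gene is shown by its brightest probe. SMAD6 follows ID3 down to human ERFE replicate 3 (-1.23 and -1.33) and back to mouse ERFE 3-B4 (-0.68 and -0.71). SMAD7 lies near the brighter ID2 probe on mouse ERFE 3-B4 (both -0.32). At the other ID2 probe, not drawn, array 3-B4 was not the highest ERFE array.

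Other targets of BMP and SMAD1/5 were lower in part. Of 17 listed, 9 were measured, and 2 were called lower with each protein: HAMP and SMAD6. The list's median log2 fold change was -0.26 with human ERFE and -0.27 with mouse ERFE, against 0.01 and 0.00 over all genes (0.248% and 0.22% of genes called in either direction). Each of these medians was the value of a single dim target that was not detected on all arrays. The brightest target of the list changed by 0.12 with human and 0.17 with mouse ERFE, and the next brightest by -0.15 and -0.07. Neither was called. HAMP, the hepcidin gene, had normalized levels of 6.96, 7.28, 7.24 and 6.62 in untreated cells. It had 4.99, 5.36, 5.42 and 4.90 with human ERFE, and 5.29, 4.88, 5.18 and 5.51 with mouse ERFE. HAMP was detected on all untreated arrays and on 1 of 4 arrays in each ERFE group, and its log2 fold change was -1.85 ± 0.18 (SE, limma adjusted p = 0.000722) and -1.81 ± 0.18 (adjusted p = 0.00193). The size for HAMP rests on the background correction, since without it the change was -0.68 and -0.66, still called. SMAD6 changed by -0.97 ± 0.11 (adjusted p = 0.00258) and -0.86 ± 0.11 (adjusted p = 0.00559). On this scale SMAD6 was close to ID3 in both, but without background correction it changed by -0.55 and -0.50 against -0.97 and -0.81 for ID3, so the closeness depends on that correction. SMAD7, which inhibits both BMP and TGF-beta signalling, passed only over both ERFE groups together, at -0.55 ± 0.10 (limma adjusted p = 0.0288). It lost the call when any of 7 single arrays was left out (adjusted p up to 0.117). A second SMAD7 probe changed by -0.66 ± 0.21 over both groups and was not called (limma adjusted p over all probes = 0.318). Over both groups 3 of the 9 targets were called lower and 0 higher, where 0.459% of all genes were called in either direction.

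The machinery that carries the BMP signal, and the partners through which ID proteins act, gave no calls. An unadjusted p under 0.05, given here only as a count, was reached by 6.98% of all genes with human ERFE, 11.5% with mouse ERFE, 10.5% over both and 4.92% between the proteins. Of 21 listed BMP ligands, receptors, co-receptors and SMADs, 11 were measured and 0 were called in any comparison (0 to 3 of them had an unadjusted p under 0.05). BMP2, a BMP ligand, differed by 0.18 ± 0.09 with human and 0.10 ± 0.09 with mouse ERFE, the BMP receptor gene BMPR2 by 0.08 ± 0.13 and 0.33 ± 0.13, and SMAD5 by 0.12 ± 0.10 and 0.22 ± 0.10 (log2 fold change ± SE). A second BMPR2 probe differed by -0.03 ± 0.22 and 0.09 ± 0.22, and a second SMAD5 probe by -0.11 ± 0.21 and -0.15 ± 0.21. The probes thus differed in sign for SMAD5 with both proteins and for BMPR2 with human ERFE. All 3 E proteins were measured and none was called (0 of 3 with an unadjusted p under 0.05): TCF3 differed by 0.32 ± 0.16 with human and 0.21 ± 0.16 with mouse ERFE, TCF4 by 0.02 ± 0.12 and -0.10 ± 0.12, and TCF12 by 0.12 ± 0.12 and 0.13 ± 0.12. Of 33 listed bHLH factors 9 were measured and 0 were called, with 0 to 2 at an unadjusted p under 0.05. The list includes HES and HEY genes, so it is wider than the tissue-restricted factors that need E proteins. HES1, a repressor of the Notch pathway, was the bHLH member with the smallest p over both groups, at -0.12 ± 0.09 and -0.39 ± 0.09 (limma adjusted p = 0.857 and 0.111). HES4 of the same family differed by 0.21 ± 0.10 and 0.19 ± 0.10, and HEY2 by 0.02 ± 0.13 and 0.41 ± 0.13.

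Other partners and effectors also stayed short of the threshold. Among 6 of 10 other listed partners measured, 0 were called (0 to 2 at an unadjusted p under 0.05), and the retinoblastoma gene RB1, whose protein ID2 binds, differed by 0.40 ± 0.13 with human and 0.29 ± 0.13 with mouse ERFE (limma adjusted p = 0.526 and 0.447). Its relatives RBL1 and RBL2 differed by 0.24 ± 0.16 and 0.20 ± 0.09 with human and by 0.13 ± 0.16 and 0.11 ± 0.09 with mouse ERFE. Of 5 genes for turnover of ID proteins 4 were measured and 0 called, with 0 at an unadjusted p under 0.05. USP1, a deubiquitinase that stabilizes ID proteins, differed by -0.13 ± 0.11 and 0.04 ± 0.11 at its brightest probe and by 0.54 ± 0.29 and 0.72 ± 0.29 at a second one, so its probes differed in sign with human ERFE. WDR48, a cofactor of USP1, differed by -0.04 ± 0.07 and -0.03 ± 0.07. FZR1, an activator of the anaphase-promoting ubiquitin ligase, had the smallest p of the turnover list over both groups and differed by 0.30 ± 0.18 and 0.22 ± 0.18 and was detected on 1 untreated array, 3 arrays with human ERFE and 2 with mouse ERFE. All 5 cyclin-dependent kinase inhibitors were measured and 0 were called, with 1 or 2 at an unadjusted p under 0.05 by comparison. CDKN1A, a cell-cycle inhibitor that E proteins activate and ID proteins hold down, varied widely in untreated cells, with normalized levels of 8.87, 10.24, 9.56 and 8.18. It lay from 8.03 to 8.81 with human ERFE and from 7.97 to 8.57 with mouse ERFE, overlapping the untreated arrays, and the changes of -0.81 ± 0.36 and -1.01 ± 0.36 did not pass (limma adjusted p = 0.688 and 0.298). CDKN1C differed by -0.48 ± 0.16 and -0.29 ± 0.16, and CDKN2B by 0.00 ± 0.11 and 0.24 ± 0.11 at its brightest probe and by 0.29 ± 0.14 and 0.52 ± 0.14 at a second one. Of 9 other regulators of ID transcription all were measured and 0 were called (1 or 2 at an unadjusted p under 0.05 by comparison). MYC, known to induce ID2, differed by -0.35 ± 0.10 and -0.45 ± 0.10 (limma adjusted p = 0.371 and 0.0902). EGR1, an immediate early factor, differed by 0.24 ± 0.15 and 0.22 ± 0.15, and CEBPB, a liver transcription factor, by -0.08 ± 0.08 and -0.15 ± 0.08.

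**Figure D5:**
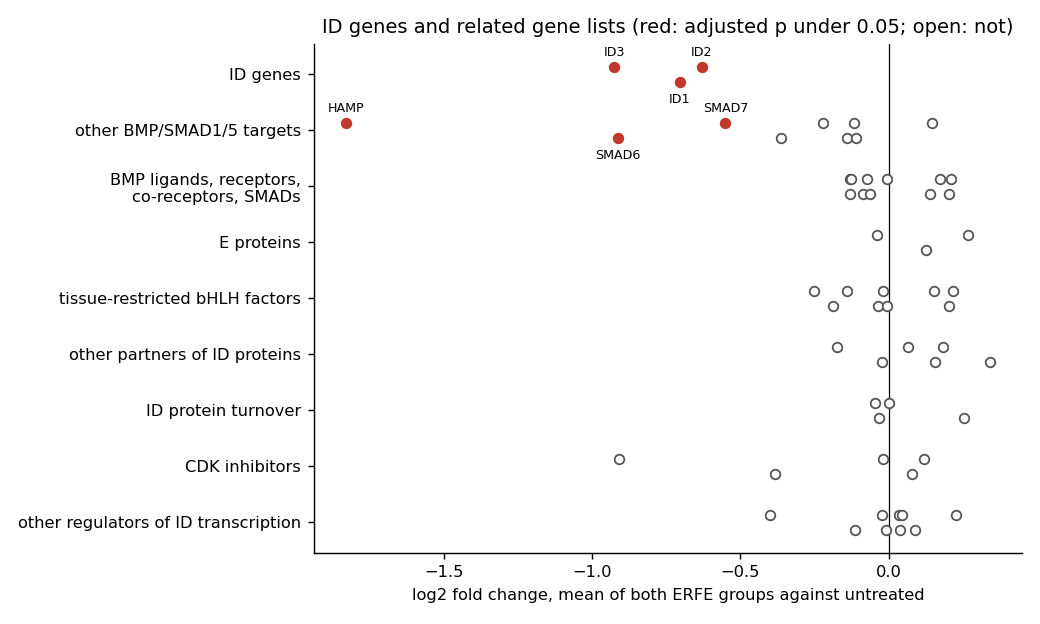
Log2 fold change of each measured gene of the ID family and of 8 related lists, for the mean of both ERFE groups against untreated, with genes called at an adjusted p under 0.05 filled in red and named. ID1, ID2, ID3, HAMP, SMAD6 and SMAD7 are the only called genes among those drawn.

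Array quality and other cell types were examined beside these results. Array medians of the deposited signal were 139.5 to 186.3, and 34.5% to 39.1% of probes were detected. All 9 hepatocyte and hepatoma markers were measured, with a summed normalized signal of 119159 to 121914 in untreated cells, 118246 to 129335 with human ERFE and 117347 to 123588 with mouse ERFE. Of 7 genes of antigen-presenting cells 5 were measured, and their sum ranged from 225 to 4749 in untreated, 430 to 1986 in human ERFE and 346 to 3544 in mouse ERFE arrays, with HLA-DPB1 and CIITA not passing the detection filter. With the mean of these 5 genes in the fit as a covariate, the falls of ID1, ID2 and ID3 with human ERFE were -0.79, -0.72 and -1.04, and with mouse ERFE -0.70, -0.59 and -0.89. Of 8 stellate cell and fibroblast markers 4 were measured, while COL1A1, COL3A1, ACTA2 and RGS5 did not pass the filter. Their sum was 173 to 199 on untreated, 206 to 254 on human ERFE and 173 to 206 on mouse ERFE arrays. These sums are small beside those of the hepatocyte markers. How many of all genes lay wholly above untreated with human ERFE is not given here, and the part of this sum in the falls of the ID genes was not tested. Of 8 leukocyte markers 5 were measured, with sums of 12029 to 13587 in untreated, 13044 to 15305 in human ERFE and 12781 to 14256 in mouse ERFE arrays, and PTPRC, CD163 and LAPTM5 did not pass. Of 6 endothelial markers 1 was measured, at 72.6 to 86.7, 65.8 to 105 and 47.1 to 84.3 in the same order, and CDH5, VWF, KDR, TEK and CLDN5 did not pass. None of the 5 marker lists held a called gene. Within each title number that held untreated and ERFE arrays, ID1, ID2 and ID3 were lower on the ERFE arrays. There were 2 such numbers for each protein, with only 1 or 2 arrays a side. The differences from untreated with human ERFE were -0.58 to -0.62 (ID1), -0.42 to -0.85 (ID2) and -0.64 or deeper (ID3). With mouse ERFE they were -0.59 to -0.68 (ID1), -0.55 to -0.61 (ID2) and -0.78 to -0.90 (ID3).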

How the data were processed

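Total RNA of Huh7 cells was labelled and hybridised to 12 arrays, 4 per group, grouped and numbered by their titles. Per the file headers, each array has a deposited intensity (a linear signal) and a deposited detection p-value for every probe. Lumi and limma are named in the submitters' processing notes. How background was handled before deposit is not given in the sources used here. The raw table was used, and 2 other deposited tables, 1 of them called normalized, hold identical intensities.

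Of 47323 probes, 30113 had 1 gene symbol, 8 several and 17202 none, and 30074 were matched by Entrez ID to RefSeq (0 symbols updated). Signals were corrected and quantile normalized to log2 with neqc of limma 3.58.1 (R 4.3.3), with an offset of 16 and with negative controls that neqc infers from detection p-values. Probes detected (p under 0.05) on 4 or more of the 12 arrays were kept (18646), and each gene took its brightest probe (10891 genes, 2679 with several). lmFit and eBayes were fitted to all 12 arrays with 3 groups (9 residual and 3.56 prior degrees of freedom), with Benjamini-Hochberg adjustment. A probe detected on no array of a group has only a bound there, set by each array's lowest detected signal. The fit was tested on simulated data. The number of arrays limits the precision.

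The ID genes and all lists were chosen with earlier results of these data known. The text names every ID probe, in each list the called genes and, up to 3 per list, those with the smallest p over both ERFE groups together, and the 5 genes most like each ID gene. Arrays with the same replicate number in different groups did not deviate together (correlations of deviations from -0.32 to 0.33, over 0.1 in 2 of 12 pairs), so the numbers were not taken to pair arrays. The mouse ERFE arrays 3-A4 and 3-B4 differed with an SD of 0.262 (0.259 to 0.384 over all pairs within groups) and were kept as separate arrays, with their mean as an alternative. Alternatives varied the background correction, normalization, filter, probe rule, arrays fitted, blocks and a covariate, and left out each array in turn. Those with the second probe of ID2 alone, and with arrays 3-A4 and 3-B4 averaged in the permutation tests, were chosen after seeing the data.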

Additional observations from a re-analysis of the deposited data

Results flagged for a closer look

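Among 39 named probes in 3 groups (117 groups), 5 groups held an array whose gap to the nearest of the other arrays, as a share of the group's whole range, was past Dixon's 95% critical value, where chance flags about 1 in 20 (5.85 here). None was an ID probe. MGLL had a low value in untreated replicate 1 (gap 0.8958 of the range, 7.68 against 7.83 to 7.85 on the normalized log2 scale). CDKN1C had a low value in mouse ERFE array 1 (0.8412, 6.20 against 6.86 to 6.99). UCA1 had a high value in human ERFE replicate 2 (0.8319, 6.996 against 6.46 to 6.55). SNORA27 had a low value in mouse ERFE array 3-A4 (0.8303, 6.23 against 6.60 to 6.68). MTURN had a high value in untreated replicate 3 (0.8291, 7.10 against 6.87 to 6.91).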

How the results depend on the processing

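The falls of ID1, ID2 and ID3 against untreated kept their direction under every alternative run. Of 3 ID genes called with human ERFE and 2 with mouse ERFE, median centring of each array left 1 and 1, the title number as a block 0 and 0, and the title letter as a block left 2 and 1. Over all 10891 genes, those called lower were 5 with human and 4 with mouse ERFE under median centring. They were 3 and 0 with the title number and 11 and 7 with the title letter, against 15 and 16 without these changes. Leaving out each array in turn gave 2 to 3 ID genes called with human and 1 to 3 with mouse ERFE, where the loss to 1 came without untreated replicate 3 (ID1 limma adjusted p = 0.0625). With the replicate number as a block, 2 ID genes were called with each protein, and ID2 with human ERFE (-0.70) had an adjusted p of 0.110. ID2 with human ERFE missed the threshold under 8 of 26 alternatives, 4 of them left-out arrays (untreated 2 and 3, human ERFE 3 and 4). ID2 with mouse ERFE passed under 6 of 26, with 0.00434 as the lowest adjusted p. ID3 missed it only with the title number as a block. Between the proteins, median centring moved the median of all genes by 0.15 and turned ID1 to 0.0319 and ID2 to 0.0207, and no alternative called an ID gene there (lowest adjusted p 0.729). Of the 4 differences between 2 ID genes that passed the exact permutation test, 0 passed with the dimmer probes of ID1 and ID2, with the second ID2 probe alone, or without any 1 untreated array (0 to 4 over all left-out arrays). With the second ID2 probe alone, ID1 minus ID3 kept its values and was lost only through the adjustment over all differences. ID1 minus ID2 turned to 0.0206 with human ERFE and 0.36 with mouse ERFE at the dimmer probes, and to 0.0023 with mouse ERFE at the second ID2 probe. The dimmer ID1 probe was detected on 0 of 4 human and 1 of 4 mouse ERFE arrays, so the values at the dimmer probes do not compare the falls of ID1 and ID2. With 4 arrays a group, ID4 and the dim ID1 probe were limited by signal at or near background.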
